A study of Mus musculus with 12 samples.

Results

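Transcripts of 10 p53 target genes were followed in tumours of the mouse 425-ICC model of intrahepatic cholangiocarcinoma, a bile duct cancer that arises within the liver. The genes were Cdkn1a, Mdm2, Bax, Bbc3, Pmaip1, Ccng1, Sesn2, Eda2r, Trp53inp1 and Phlda3, taken by symbol from a bulk RNA sequencing table of 24421 symbols, and all 10 were found. Tumours had been collected after 8 days of treatment, and each of 4 groups held 3 libraries. GC was chemotherapy alone, which in this cancer stands for gemcitabine and cisplatin. ICB was dual immune checkpoint blockade, directed at CTLA-4 and PD1 according to the title of the study. Combination was GC together with dual ICB, and Control received IgG. The labels do not give the strain, age or sex of the mice, the driver alleles of the tumour line or its Trp53 genotype, and they do not tie libraries to animals. The spread behind each p-value is therefore that among libraries, which may be technical. The study asked how the transcripts of the tumours changed under each treatment relative to Control. Levels are FPKM, fragment counts scaled for transcript length and library size, so they can be set side by side between genes.

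The p53 protein, encoded by Trp53 in the mouse, is a transcription factor that becomes stable and active when DNA is damaged. It binds paired copies of a short consensus sequence near its targets and switches on genes that halt the cell cycle, start apoptosis or limit p53 itself. Gemcitabine blocks DNA synthesis and cisplatin crosslinks DNA, and both are textbook triggers of this response. In the bile duct cancers of patients the pathway is often lost by mutation of the p53 gene. The targets fall into an arrest branch (Cdkn1a, Ccng1), an apoptosis branch (Bax, Bbc3, Pmaip1), a feedback arm (Mdm2), and a set of metabolic and signalling regulators (Sesn2, Trp53inp1, Phlda3, Eda2r).

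The promoters of Cdkn1a and Ccng1 are shown because, of the 8 targets with a promoter in the table used, these were the ones that held a match to the 20-letter p53 consensus site. Sequences are from RefSeq (GRCm38.p6), 5′ to 3′ on the strand of the gene, and cover the 250 bases before an annotated start of transcription. Cdkn1a had a further window in the table used (chr17:29093519-29093768), which held no match and is not shown. Capitals mark the match.
Cdkn1a (chr17:29090729-29090978, plus strand): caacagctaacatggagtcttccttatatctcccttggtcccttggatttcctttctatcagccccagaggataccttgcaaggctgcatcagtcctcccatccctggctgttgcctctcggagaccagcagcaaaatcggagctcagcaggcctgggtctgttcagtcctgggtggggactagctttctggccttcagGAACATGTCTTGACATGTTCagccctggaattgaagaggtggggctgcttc
Ccng1 (chr11:40755287-40755536, minus strand): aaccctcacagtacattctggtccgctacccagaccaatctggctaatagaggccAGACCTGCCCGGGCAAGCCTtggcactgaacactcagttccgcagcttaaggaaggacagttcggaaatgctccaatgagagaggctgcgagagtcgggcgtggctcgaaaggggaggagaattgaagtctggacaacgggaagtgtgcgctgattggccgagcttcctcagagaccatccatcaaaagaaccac
The motif searched was the p53 consensus site, a 10-letter sequence that reads the same on both strands, and 2 adjacent copies of it (20 letters, at most 1 mismatch). The 8 genes had 11 windows, since some have more than 1 annotated start. The 20-letter site occurred in 2 of the 8 genes (2 of the 11 windows), each time with 1 mismatch, and in 0.0761% of all 32851 promoter windows of this length. The single 10-letter site occurred in 4 of the 8 genes (4 of the 11 windows), namely Bax, Mdm2, Ccng1 and Cdkn1a, and in 7.13% of all windows. A match describes letters in the window and not binding, and known p53 sites outside these windows, such as those in introns, were not searched.

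Before any comparison, the libraries themselves differed in which tissue they carried. The 20 hepatocyte genes summed to 4637, 99505 and 40240 FPKM in the Combination libraries, to between 341 and 6779 FPKM in the GC and ICB libraries, and to between 9.65 and 93.2 FPKM in Control. In Combination 2 they made up 18.2% of all FPKM. Small intestinal genes (11) summed to 5257 FPKM in Combination 1 and to at most 551 FPKM in any other library. Skeletal muscle genes (10) summed to 3442 FPKM in GC 2 and 1126 FPKM in Control 2, against at most 8.38 FPKM elsewhere. Among markers of bile duct epithelium, Spp1 (275.7 to 7598 FPKM) and Sox9 (7.56 to 91.9 FPKM) were present in all 12 libraries. The bile duct keratin gene Krt19 was listed at 0 in Control 2 and 3 and Epcam, an epithelial adhesion molecule, at 0 in Control 3 and ICB 1. Epcam reached 126 FPKM in Combination 1, the library rich in intestinal genes, and at most 5.80 FPKM in any other library. Krt19 stood at 48.3 FPKM in Combination 1, 18.2 FPKM in Control 1 and at most 7.77 FPKM elsewhere. Group means of Krt7, another keratin gene, ran from 1.38 FPKM in Control to 2.56 FPKM in Combination. These epithelial markers were therefore low in most libraries, not only in those listed at 0. Control 1 stood apart from the other Control libraries, with leukocyte genes (11) at 232 FPKM against 3175 and 6382 FPKM. In bulk tissue, fewer cells of a type and less RNA per cell cannot be told apart, and the part of these mixtures in the results on the p53 targets was not tested beyond the fits that are named beside them.

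**Figure D1:**
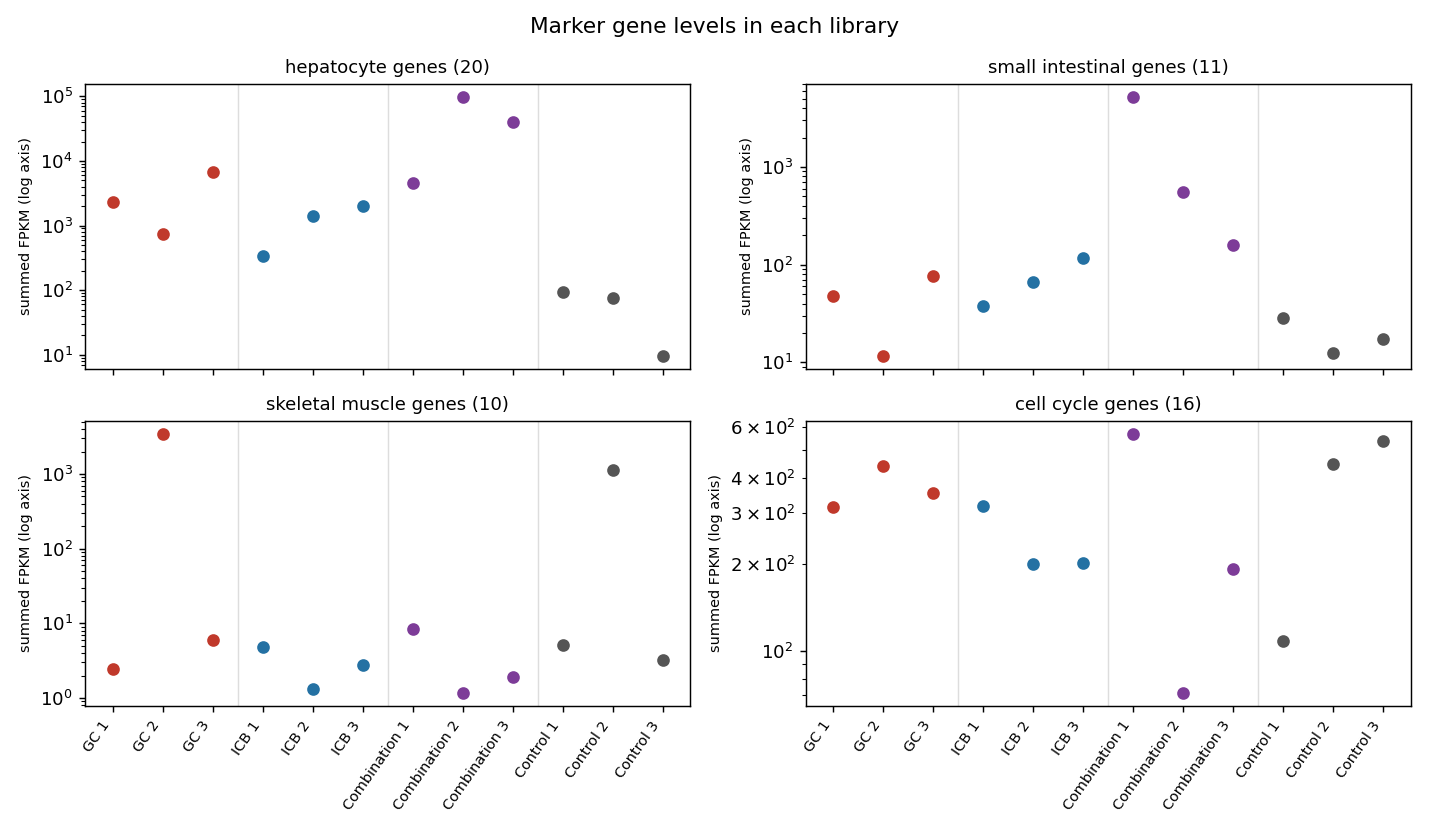
Summed FPKM of marker gene lists (vertical axes, log scale) in the 12 libraries of the GC, ICB, Combination and Control groups, 1 point per library. Hepatocyte genes reach 99505 FPKM in a Combination library and stay at or below 93.2 FPKM in Control.

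The 10 targets spanned a wide range of abundance. Averaged over the 12 libraries, Bax stood at 84.2 ± 24.1 FPKM, Phlda3 at 68.6 ± 24.7 FPKM and Cdkn1a at 65.2 ± 24.1 FPKM (SD, n = 12), and these 3 means lay within 1 SD of one another. Bax was higher than 94.9% of the symbols above 0, Phlda3 higher than 93.9% and Cdkn1a higher than 93.5%. Ccng1 (20.3 FPKM) and Mdm2 (19.9 FPKM) followed at nearly the same level, then Bbc3 (8.31 FPKM), Sesn2 (5.39 FPKM), Trp53inp1 (3.46 FPKM) and Pmaip1 (1.78 FPKM). Eda2r, a death-domain receptor of the tumour necrosis factor receptor family, was lowest at 0.809 FPKM, below the mean of 1 FPKM required for testing, so 9 of the 10 targets were tested. Mdm2 was the steadiest, with a coefficient of variation of 19.97% over the libraries and a highest value 2.44 times the lowest. Pmaip1 was the least steady, with a coefficient of variation of 115%.

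**Figure D2:**
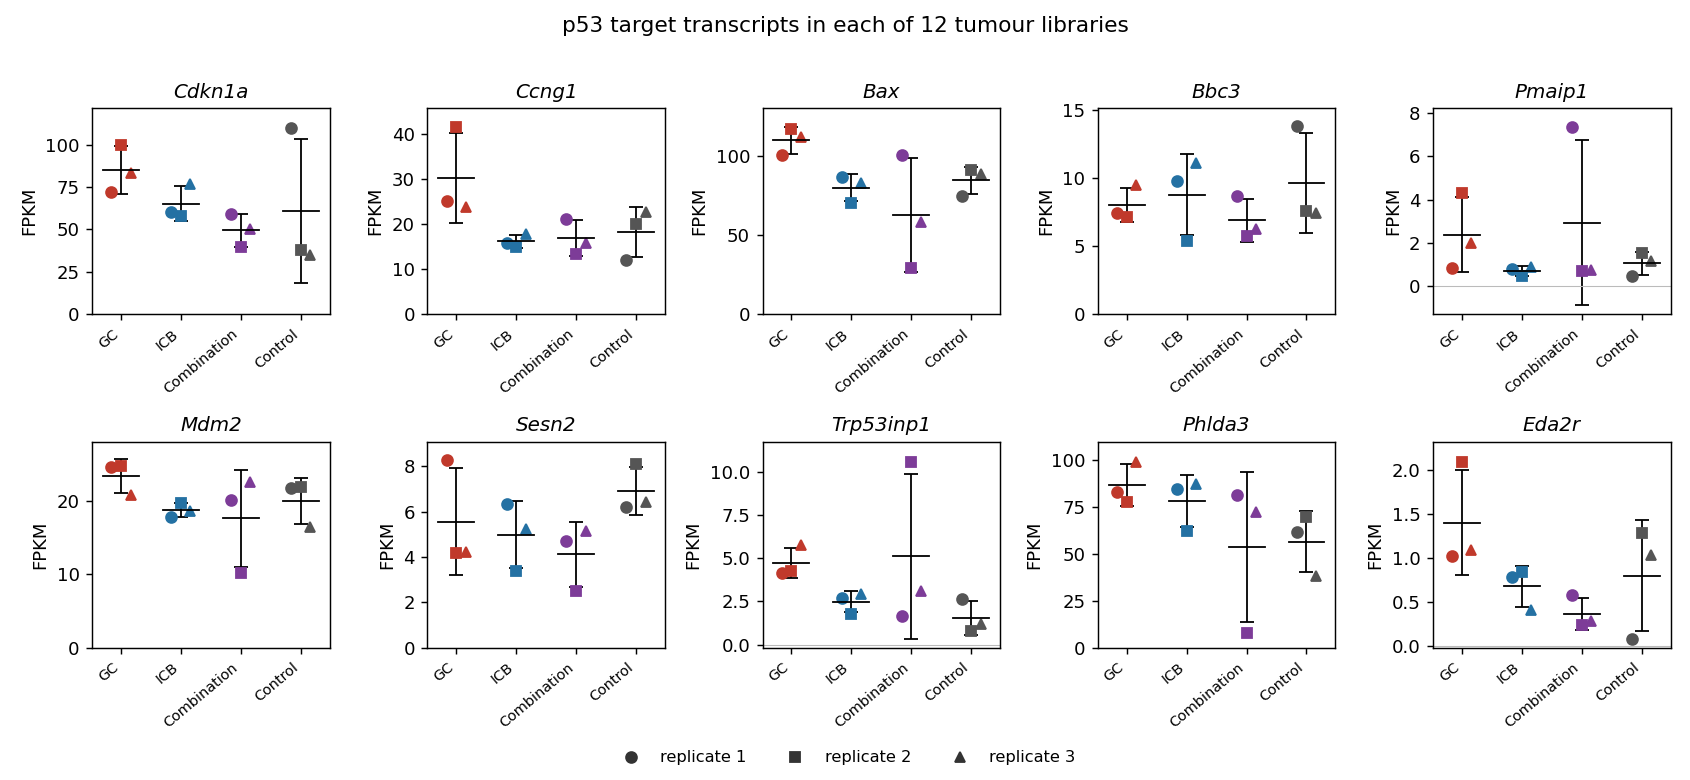
Level of each of the 10 p53 targets in FPKM (linear vertical axes), with 1 marker per library and shape for the replicate number. Bars show the group mean and SD (n = 3), and the groups run GC, ICB, Combination, Control. Cdkn1a in Control 1 (109.99 FPKM) and Phlda3 in Combination 2 (7.61 FPKM) stand apart from their own groups.

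GC against Control asked what chemotherapy alone did. None of the 9 tested targets passed the test, although 7 of the 9 had a higher fitted level in GC tumours. The arrest genes Cdkn1a and Ccng1, the apoptosis gene Bax, and Trp53inp1 and Phlda3 were among those with higher means in GC. Bbc3 and Sesn2 had lower means. Few genes of the whole table were called either: at an adjusted p of 0.05 (limma on log2(FPKM + 1), Benjamini-Hochberg over 12765 genes), 1 gene or 0.00783% was called.

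Cdkn1a (chr17:29090976-29100727) encodes p21, the inhibitor of cyclin-dependent kinases through which p53 halts the cell cycle. It stood at 71.8, 100.04 and 83.5 FPKM in GC tumours and at 109.99, 37.9 and 34.7 FPKM in Control tumours. All 3 GC libraries lay above Control 2 and 3, but Control 1 was the highest of the 12 libraries, so the groups overlapped. The difference was 0.67 ± 0.39 (log2, SE, adjusted p = 0.633), with a 95% interval of -0.19 to 1.53. Without Control 1 it was 1.195 (adjusted p = 0.231), larger and still not past the threshold. Control 1 was also the library with the lowest sum of cell cycle genes in its group, 108 FPKM against 447 and 536 FPKM in Control 2 and 3. The lowest sum of the 12 libraries was in Combination 2, at 71.3 FPKM, where Cdkn1a stood at 39.6 FPKM. GC libraries had sums of 317 to 439 FPKM. A link between Cdkn1a and these genes was not tested.

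Ccng1 (chr11:40748552-40755311), which encodes cyclin G1, a target that recruits a phosphatase to regulate Mdm2 and p53, stood at 25.1, 41.5 and 23.7 FPKM in GC tumours and at 12.1, 19.9 and 22.7 FPKM in Control. Every GC library was above every Control library, though GC 3 exceeded Control 3 by little. The difference was 0.69 ± 0.30 (log2, SE), with an unadjusted p of 0.040 and an adjusted p of 0.471 by limma. GC 2, the highest library, was also the library richest in muscle genes. The difference was 0.44 without GC 2 and 0.44 without Control 1.

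Of the apoptosis genes, Bax (chr7:45461697-45466898), whose product perforates the outer mitochondrial membrane, stood at 100.4, 116.7 and 111.9 FPKM in GC tumours and at 74.7, 90.8 and 88.2 FPKM in Control. The groups did not overlap, GC 1 being the lowest of its group and Control 2 the highest of its own. The difference on the log2 scale was 0.37 ± 0.36 (SE, adjusted p = 0.815), an SE that carries the spread of Bax in the Combination libraries, since the 4 groups share 1 estimate. Bbc3 (chr7:16308393-16318205), which encodes PUMA, a BH3-only activator of Bax, stood at 7.44, 7.13 and 9.44 FPKM in GC tumours and at 13.8, 7.56 and 7.44 FPKM in Control. Here the groups overlapped and Control 1 was again the highest of all libraries (log2 difference -0.19 ± 0.31, adjusted p = 0.903). Pmaip1, on chromosome 18, encodes NOXA, another BH3-only protein, and it stood at 0.866, 4.29 and 2.01 FPKM in GC tumours and at 0.485, 1.53 and 1.17 FPKM in Control. GC 2 and GC 3 exceeded all Control libraries and GC 1 did not (0.62 ± 0.59, adjusted p = 0.803), and without GC 2 the difference was 0.24.

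The feedback gene Mdm2 (chr10:117688875-117710758) encodes the ubiquitin ligase that degrades p53. It stood at 24.7, 24.7 and 20.7 FPKM in GC tumours and at 21.7, 21.8 and 16.4 FPKM in Control. The groups overlapped, since GC 3 lay below Control 1 and 2. The difference was 0.22 ± 0.28 (log2, SE, adjusted p = 0.863), and its 95% interval of -0.39 to 0.84 leaves room for changes in either direction.

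Among the remaining targets, Trp53inp1 (chr4:11156431-11174379), which encodes a nuclear stress protein that promotes p53-dependent death and autophagy, had the largest fitted difference of the 9. It stood at 4.14, 4.28 and 5.74 FPKM in GC tumours and at 2.66, 0.763 and 1.196 FPKM in Control. The lowest GC library lay above the highest Control library (log2 difference 1.23 ± 0.47, unadjusted p = 0.024, adjusted p = 0.411). With the Combination libraries left out of the fit, a setting added after the data were seen, the adjusted p was 0.0554. The share of all tested genes called in that fit is not given here. Phlda3 (chr1:135766119-135769136), whose product competes with the kinase Akt for membrane lipids, stood at 83.1, 77.3 and 98.9 FPKM in GC tumours and at 61.7, 69.3 and 38.3 FPKM in Control. Its groups did not overlap either (0.64 ± 0.68, adjusted p = 0.828). Sesn2 (chr4:132492032-132510501), which encodes a sestrin that restrains mTORC1 and oxidative stress, stood at 8.28, 4.17 and 4.21 FPKM in GC tumours and at 6.21, 8.11 and 6.44 FPKM in Control. Its highest value was in GC 1, while GC 2 and 3 lay below all Control libraries (-0.32 ± 0.32, adjusted p = 0.818).

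Eda2r (chrX:97333840-97377216) stood at 1.02, 2.09 and 1.09 FPKM in GC tumours and at 0.0763, 1.29 and 1.03 FPKM in Control. In a fit of every gene above 0 its difference was 0.46 ± 0.28 (log2, SE, adjusted p = 0.642). Control 1 again had the lowest value of the 12 libraries.

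Counted together, 2 of the 9 tested targets (Ccng1 and Trp53inp1) were higher at an unadjusted p under 0.05 and 0 were lower, against 9.86% of all tested genes in either direction and 8.2% higher and 1.66% lower. In 4 of the 9 (Ccng1, Bax, Trp53inp1 and Phlda3) all GC libraries lay above all Control libraries, against 18.6% of all tested genes, and in 0 of the 9 did they lie below, against 9.29%. The median log2 difference of the 9 was 0.62, beside 0.09 over all tested genes, of which 58.1% had a difference above 0. Fibroblast genes (10) also stood higher in GC libraries, at sums of 2578 to 4612 FPKM against 898 to 1745 FPKM in Control, with a median difference of 1.08 and 5 of the 10 wholly above Control. Other marker lists shifted upward too, with median differences of 0.69 for leukocyte, 0.62 for bile duct and tumour epithelium, 0.57 for endothelial, 0.56 for skeletal muscle and 4.79 for hepatocyte genes. Small intestinal genes were at 0.06. The part of these cell types in the result was not tested.

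With the mean of the hepatocyte genes as a covariate, the differences between GC and Control shifted in both directions and 0 of the 9 targets was called, while 740 genes or 5.8% of those tested were. That mean was 0.41 to 1.68 (log2) in Control and did not overlap any other group, the lowest other library being ICB 1 at 2.92. In comparisons with Control, a fit with this covariate therefore cannot tell treatment from hepatocyte content. Pmaip1 was at 2.06 (adjusted p = 0.0530), Bax at 1.24 (adjusted p = 0.0572) and Ccng1 at 1.21 (adjusted p = 0.0623), each larger than without the covariate. Phlda3 was at 1.80 (adjusted p = 0.175), Cdkn1a at 0.82 (adjusted p = 0.340) and Mdm2 at 0.55 (adjusted p = 0.356). Trp53inp1 was smaller, at 0.20 (adjusted p = 0.825), and Sesn2 (0.052) and Bbc3 (-0.0052) lay near 0.

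**Figure D3:**
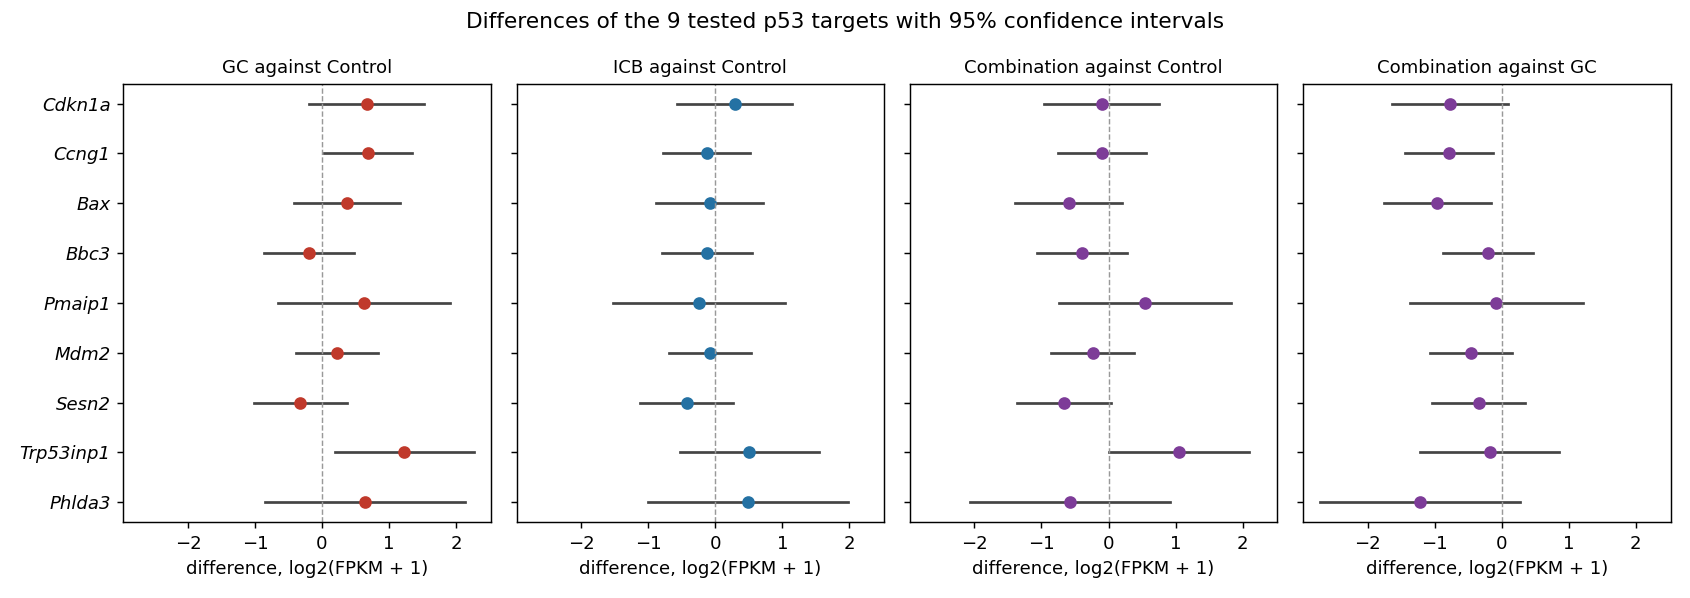
Fitted log2 difference of the 9 tested p53 targets (points) with 95% confidence intervals (lines) for GC, ICB and Combination against Control and for Combination against GC; the dashed line marks 0. In GC against Control 7 of 9 points lie right of 0 and in Combination against GC all 9 lie left of it, and no target passed the adjusted threshold in any of the 4 panels.

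ICB against Control asked what dual checkpoint blockade did without chemotherapy. None of the 9 tested targets was called, and neither was any gene of the table (0 of 12765, 0%); at an unadjusted p under 0.05 there were 0 of the 9 targets and 223 genes or 1.75%. The fitted differences of the targets ran between -0.43 for Sesn2 and 0.51 for Trp53inp1 (log2), with 3 above and 6 below 0. Cdkn1a stood at 60.2, 58.2 and 76.9 FPKM in ICB tumours, between Control 1 above and Control 2 and 3 below. Bax stood at 86.8, 70.1 and 83.1 FPKM, Mdm2 at 17.9, 19.7 and 18.6 FPKM and Ccng1 at 15.8, 14.8 and 17.7 FPKM in ICB tumours, each within or close to the span of its Control values. Mdm2 (SD 0.919 FPKM, n = 3) and Ccng1 (SD 1.45 FPKM) varied less among the ICB libraries than among the libraries of any other group.

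The remaining targets overlapped with Control as well. Pmaip1 stood at 0.785, 0.473 and 0.891 FPKM, Bbc3 at 9.79, 5.40 and 11.1 FPKM, and Eda2r at 0.776, 0.839 and 0.407 FPKM in ICB tumours. Sesn2 stood at 6.32, 3.40 and 5.23 FPKM, and Trp53inp1 at 2.72, 1.78 and 2.93 FPKM. Phlda3 stood at 84.7, 62.1 and 87.3 FPKM, where ICB 1 and 3 exceeded all Control libraries and ICB 2 did not (0.49 on the log2 scale, adjusted p = 1). For 0 of the 9 tested targets did the ICB and Control libraries lie apart, against 4.65% of all tested genes with ICB wholly higher and 4.67% wholly lower.

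Combination against Control asked what chemotherapy and dual blockade did together. No tested target passed the test, in a comparison where 504 genes, or 3.95% of those tested, did. Fitted differences were below 0 for 7 of the 9 targets, with a median of -0.23 (log2) beside -0.29 over all tested genes. Only Trp53inp1 had an unadjusted p under 0.05, against 26.3% of all tested genes.

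Within the Combination group the targets were spread widely, and Combination 2, the library richest in hepatocyte genes, held many of the lowest values. Bax stood at 100.4, 29.2 and 58.1 FPKM in Combination tumours (log2 difference from Control -0.59, adjusted p = 0.298). Phlda3 stood at 81.2, 7.61 and 72.2 FPKM (-0.58, adjusted p = 0.575). Combination 2 had the lowest level of the 12 libraries for 4 of the 10 targets, namely Mdm2, Bax, Sesn2 and Phlda3, and without it the Phlda3 difference was 0.48 in place of -0.58. The median of all tested genes was also lowest in Combination 2, at 2.80 (log2(FPKM + 1)) against 3.05 to 3.55 in the other libraries. The share of all genes with their lowest level in it was not counted.

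Sesn2 stood at 4.71, 2.48 and 5.15 FPKM in Combination tumours, and each lay below all 3 Control libraries. The difference was -0.67 ± 0.32 (log2, SE, unadjusted p = 0.059, adjusted p = 0.205), and Sesn2 was the only 1 of the 9 tested targets whose groups did not overlap, while 13.2% of all tested genes lay wholly below Control and 9.74% wholly above. Trp53inp1 stood at 1.65, 10.6 and 3.11 FPKM in Combination tumours, so the library richest in hepatocyte genes was the highest of all 12 while Combination 1 lay within Control (1.05 ± 0.47, unadjusted p = 0.048, adjusted p = 0.187). Without Combination 2 this difference was 0.45 (adjusted p = 0.606), and with the hepatocyte covariate it was -0.68. Pmaip1 stood at 7.35, 0.714 and 0.764 FPKM, and the highest value of the 12 libraries came from Combination 1, the library rich in intestinal genes (0.54, adjusted p = 0.54).

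The arrest genes and the feedback gene in Combination tumours were close to Control. Cdkn1a stood at 59.0, 39.6 and 50.2 FPKM (-0.10, adjusted p = 0.873), all 3 values lying above Control 2 and 3 and below Control 1. Ccng1 stood at 21.2, 13.4 and 15.8 FPKM (-0.09, adjusted p = 0.848). Mdm2 stood at 20.1, 10.1 and 22.6 FPKM (-0.23, adjusted p = 0.582). Bbc3 stood at 8.66, 5.76 and 6.22 FPKM (-0.39, adjusted p = 0.399), and Eda2r at 0.572, 0.236 and 0.283 FPKM. The directions of Cdkn1a, Ccng1 and Mdm2 turned to 0.25, 0.25 and 0.10 when libraries were rescaled by the median ratio of their genes.

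Combination against GC asked what adding blockade to chemotherapy did, and all 9 tested targets had a lower fitted level in Combination tumours. None was called by limma, against 85 genes or 0.666% of the table. Most other transcripts lay in the same direction, since 23.8% of all tested genes had a difference above 0, and the median was -0.46 (log2) for the targets beside -0.36 for all tested genes. Fibroblast genes lay lower as well, at sums of 333 to 1559 FPKM in Combination libraries against 2578 to 4612 FPKM in GC libraries. All 10 had a difference below 0, 7 of them at an unadjusted p under 0.05, with a median of -1.45, and their part in the result was not tested. For Cdkn1a, Bax and Ccng1 all Combination libraries lay below all GC libraries, which is 3 of 9 targets against 14.2% of all tested genes, and 0 of 9 lay wholly above, against 4.16%. Bax was lower by the narrowest margin, with 100.38 FPKM in Combination 1 and 100.43 FPKM in GC 1.

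The fitted difference between Combination and GC was -0.97 ± 0.36 for Bax (log2, SE, unadjusted p = 0.022, adjusted p = 0.272) and -0.78 ± 0.30 for Ccng1 (unadjusted p = 0.023, adjusted p = 0.275), while 10.4% of all tested genes were lower at an unadjusted p under 0.05. It was -0.77 ± 0.39 for Cdkn1a (adjusted p = 0.317) and -1.22 ± 0.68 for Phlda3 (adjusted p = 0.331). The values turned on single Combination libraries. Without Combination 1, Bax (-1.39, adjusted p = 0.00708) and Ccng1 (-0.95, adjusted p = 0.0485) passed the threshold in this comparison, in a fit that called 3148 genes or 24.9% of those tested, while without Combination 2 Bax was at -0.51 (adjusted p = 0.717). Without Combination 1, Bax (-1.01, adjusted p = 0.0273) and Trp53inp1 (1.51, adjusted p = 0.0296) also passed in Combination against Control; what remained were the 2 libraries richest in hepatocyte genes, and 3322 genes or 26.3% of those tested were called. The smaller differences between Combination and GC were -0.46 for Mdm2, -0.34 for Sesn2, -0.20 for Bbc3, -0.18 for Trp53inp1 and -0.08 for Pmaip1, and those of Sesn2, Bbc3, Trp53inp1 and Pmaip1 turned above 0 under median-ratio scaling. Eda2r, fitted without the filter, was at -0.80 ± 0.28 (adjusted p = 0.284), with all Combination libraries below all GC libraries.

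In Combination against ICB, where chemotherapy was added to blockade, 0 of the 9 targets and 2.24% of all tested genes were called; at an unadjusted p under 0.05 there were 0 of the 9 and 20.5% of all tested genes. Taken over the 6 libraries with and the 6 without chemotherapy, Trp53inp1 had the largest difference, 0.89 ± 0.33 (log2, SE, unadjusted p = 0.022, adjusted p = 0.154), followed by Pmaip1 at 0.70 (adjusted p = 0.348) and Ccng1 at 0.36 ± 0.21 (adjusted p = 0.340). With the hepatocyte covariate Trp53inp1 turned to -0.15 and Pmaip1 was called (2.16, adjusted p = 0.0379), in a fit that called 3.44% of all tested genes. Control lay below all other groups in the hepatocyte mean, so this fit is not a clean correction. Pmaip1 stood at 7.35 FPKM in Combination 1 and at 0.714 and 0.764 FPKM in Combination 2 and 3. Without Combination 1 its difference, fitted without the covariate, was 0.32. Without Combination 1 Trp53inp1 was called (1.12, adjusted p = 0.0263), beside 14.2% of all tested genes. The arrest gene Cdkn1a was at 0.14, Mdm2 at 0.03, Bax at -0.07, Phlda3 at -0.21, Bbc3 at -0.23 and Sesn2 at -0.28. None of the 9 was called, against 3.36% of all tested genes, and 1 of the 9 (Trp53inp1) had an unadjusted p under 0.05, against 22.3%. The test of whether the difference with chemotherapy depended on blockade called 0 of the 9 targets and 0.0157% of all tested genes, and at an unadjusted p under 0.05 it found 0 of the 9 targets and 8.09% of all tested genes. These comparisons share libraries with those above.

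Trp53 itself (chr11:69580359-69591873) stood at 38.4, 38.8 and 40.1 FPKM in GC tumours and at 32.1, 60.4 and 44.5 FPKM in Control (log2 difference -0.17 ± 0.37, adjusted p = 0.937). The GC values were close together and lay inside the Control span. The transcript was present in every library, between 14.6 FPKM in Combination 2 and 60.4 FPKM in Control 2, which says nothing of mutations in it or of p53 protein. Cdkn2a, whose locus encodes the Mdm2 antagonist Arf and the cyclin-dependent kinase inhibitor p16, was among the most abundant transcripts at a mean of 493 FPKM, above 99.1% of symbols above 0. It stood at 582, 244 and 587 FPKM in GC tumours, 577, 593 and 649 FPKM in ICB tumours, 471, 35.9 and 345 FPKM in Combination tumours and 667, 563 and 603 FPKM in Control tumours. Its lowest value was again in Combination 2, and its difference with chemotherapy was -1.11 ± 0.54 (adjusted p = 0.252). Without Combination 2 it was -0.53, and with the hepatocyte covariate it was 0.17.

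Mdm4, a partner of Mdm2 that blocks the activation domain of p53, stood at 7.64, 1.10 and 0.902 FPKM in GC tumours and at 7.71, 11.1 and 10.9 FPKM in Control. All GC libraries lay below all Control libraries, GC 1 only just. The difference did not pass the test (-1.73 ± 0.66, adjusted p = 0.407), nor did that over all chemotherapy libraries (-1.33 ± 0.47, adjusted p = 0.135). In ICB tumours Mdm4 stood at 13.5, 13.8 and 2.51 FPKM. In Combination tumours it stood at 5.39, 5.17 and 1.75 FPKM, all below every Control library, as 13.2% of all tested genes did. The kinase genes Hipk2 (-0.57, adjusted p = 0.542) and Atr (-0.38, adjusted p = 0.694), whose products phosphorylate p53 or start its activation, had the next smallest p of the regulators in GC against Control; over all chemotherapy libraries Atr was at -0.46 (adjusted p = 0.166). Of 13 p53 family members and regulators 11 were tested, with 0 called in either direction in any comparison by limma; at an unadjusted p under 0.05, 1 (Mdm4) was lower and 0 were higher in GC against Control, beside 1.66% and 8.2% of all tested genes. The p53 relatives Trp63 (mean 0.0102 FPKM) and Trp73 (listed at 0) were too low to test.

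A wider list of 33 p53 targets, 32 of them tested, gave a picture that differed by comparison. In GC against Control 0 were called, and 5 were higher and 1 (Ddit4) was lower at an unadjusted p under 0.05, beside 8.2% and 1.66% of all tested genes. A difference above 0 was found in 24 and below 0 in 8, where 58.1% of all tested genes lay above 0, and the median was 0.39 (log2) beside 0.09. The smallest p belonged to Fas, the death receptor gene, which stood at 3.79, 5.90 and 5.43 FPKM in GC tumours and at 0.866, 1.45 and 1.84 FPKM in Control. Every GC library exceeded every Control library (1.35 ± 0.37, adjusted p = 0.222). With the Combination libraries left out of the fit, a setting added after the data were seen, the adjusted p was 0.0248. The share of all tested genes called in that fit is not given here, so this value cannot be set beside it. Btg2, an antiproliferative gene, stood at 10.8, 29.5 and 23.0 FPKM in GC tumours and at 8.28, 11.8 and 6.81 FPKM in Control (1.07 ± 0.39, adjusted p = 0.374). Ddit4, a stress-induced inhibitor of mTORC1 also driven by hypoxia and glucocorticoids, stood at 43.8, 37.5 and 88.0 FPKM in GC tumours and at 217, 73.5 and 130 FPKM in Control (-1.26 ± 0.44, adjusted p = 0.348). With the hepatocyte covariate Ddit4 was called (-2.11, adjusted p = 0.0409) and Fas was at 0.70 (adjusted p = 0.335).

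In Combination against Control 4 of the 32 tested genes of the wider list rose and 0 fell, namely Perp, Fas, Tob1 and Dcxr, beside 3.55% of all tested genes that rose. The list was chosen with earlier results of these data known. Its counts in this and the other comparisons are therefore not an independent test of p53 targets. In ICB against Control 0 of the 32 were called, and in Combination against GC 0 were called. Perp, which encodes a membrane protein of desmosomes and of p53-dependent death, stood at 25.4, 47.9 and 21.5 FPKM in Combination tumours and at 6.81, 2.40 and 4.995 FPKM in Control (2.505 ± 0.40, adjusted p = 0.00536). Fas stood at 5.85, 19.4 and 7.16 FPKM in Combination tumours, all above Control (2.15 ± 0.37, adjusted p = 0.00834).

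Tob1, an antiproliferative gene of the same family as Btg2, stood at 19.3, 42.0 and 23.6 FPKM in Combination tumours and at 8.11, 7.28 and 7.19 FPKM in Control (1.71 ± 0.30, adjusted p = 0.00917). Dcxr, a xylulose reductase abundant in liver and kidney, stood at 18.1, 54.0 and 33.0 FPKM in Combination tumours and at 6.52, 6.28 and 7.26 FPKM in Control (2.10 ± 0.37, adjusted p = 0.0100). In all 4 genes the groups did not overlap and Combination 2, the library with the highest hepatocyte sum, was the highest of the 12. With the hepatocyte mean as a covariate none of the 4 passed, at 1.80 for Perp (adjusted p = 0.320), 1.07 for Fas (0.474), 0.94 for Tob1 (0.450) and 1.21 for Dcxr (0.439). Control and Combination did not overlap in that mean, so this fit cannot tell treatment from hepatocyte content. With GC 2 and Control 2, the muscle-rich libraries, left out together, Perp passed while Fas (0.0593), Tob1 (0.0714) and Dcxr (0.0611) did not, and in a fit of Combination and Control alone the differences were as large and the adjusted p ran from 0.0790 for Perp to 0.147 for Fas. The same 4 genes rose in Combination against ICB, where 2.05% of all tested genes rose, with adjusted p of 0.00776 for Perp, 0.0498 for Fas, 0.00781 for Tob1 and 0.0270 for Dcxr. Without ICB 2 the adjusted p of that comparison was 0.0516 for Perp, 0.160 for Fas, 0.0516 for Tob1 and 0.138 for Dcxr. With each library left out in turn, the difference lay between 2.14 and 2.70 for Perp, 1.12 and 1.91 for Fas, 1.52 and 2.06 for Tob1 and 1.48 and 2.25 for Dcxr. The adjusted p of Dcxr was also above 0.05 without ICB 1 (0.0771), ICB 3 (0.0720), Combination 2 (0.0682) or Combination 3 (0.0612), and for Fas without any single library other than Combination 1, up to 0.171. In ICB tumours Fas stood at 2.18, 2.57 and 2.55 FPKM, above Control in each library and below every GC and Combination library.

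Over all chemotherapy libraries 4 of the 32 rose, beside 3.01% of all tested genes, and 1 fell, beside 0.353%. Those that rose were again Tob1 (1.22 ± 0.21, adjusted p = 0.0115), Perp (1.63 ± 0.28, adjusted p = 0.0119), Fas (1.48 ± 0.26, adjusted p = 0.0133) and Dcxr (1.42 ± 0.26, adjusted p = 0.0161). Ddb2, a DNA damage recognition gene that is named here after its values were seen, fell (-0.96 ± 0.22, adjusted p = 0.0408). It stood at 2.85, 1.32 and 1.18 FPKM in GC tumours, 4.29, 3.05 and 4.19 FPKM in ICB tumours, 0.648, 0.678 and 1.95 FPKM in Combination tumours and 3.41, 2.94 and 3.44 FPKM in Control tumours. All 6 chemotherapy libraries lay below the 6 others, GC 1 at 2.85 FPKM only just below Control 2 at 2.94 FPKM. The share of all tested genes that lay apart in this way was not counted. The call of Ddb2 was kept without GC 1, Combination 1 or Combination 3 and was lost without any other single library, with an adjusted p between 0.0630 and 0.122, while the difference lay between -1.10 and -0.88 throughout. None of the 4 genes that rose passed under the hepatocyte covariate, at 0.76 for Tob1 (adjusted p = 0.208), 1.21 for Perp (0.171), 0.83 for Fas (0.245) and 0.89 for Dcxr (0.236). Without ICB 2 the adjusted p of Dcxr was 0.0527.

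**Figure D4:**
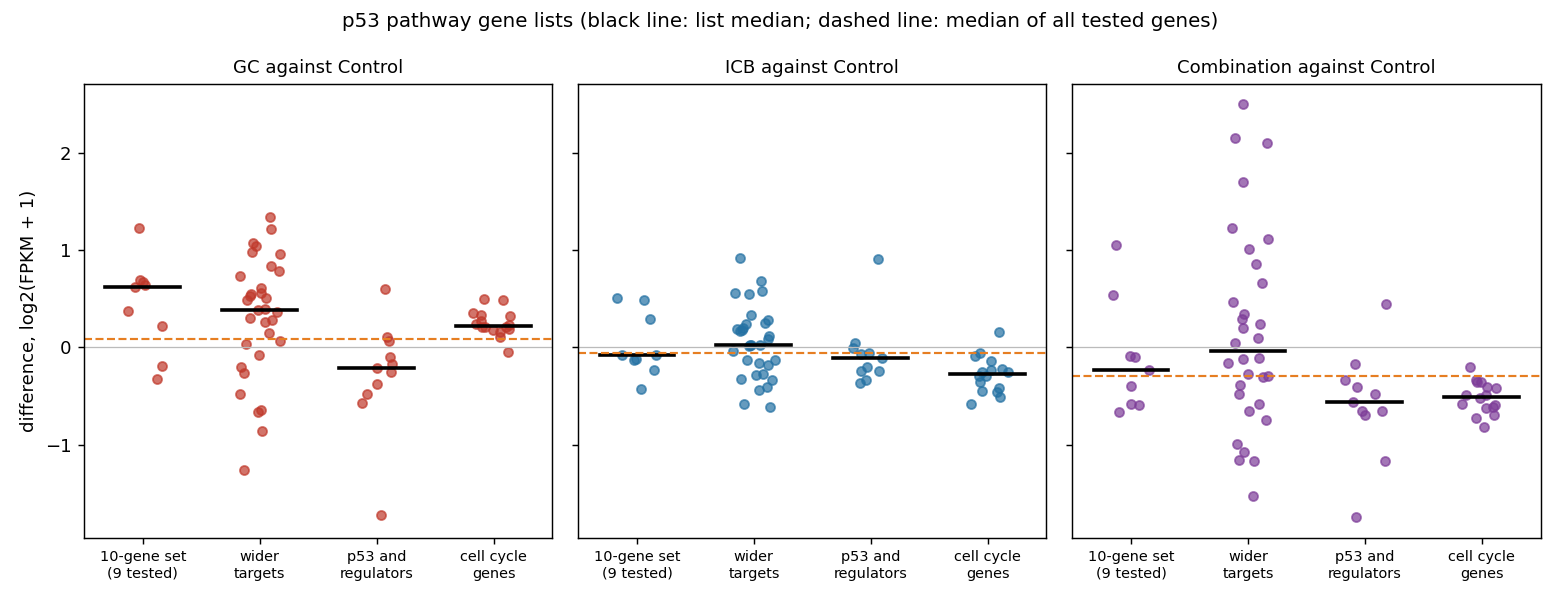
Fitted log2 difference (vertical axis) of each tested gene of 4 lists, 1 point per gene, for GC, ICB and Combination against Control; black lines are list medians and the dashed line is the median of all tested genes. In GC against Control 24 of 32 wider targets lie above 0, and in Combination against Control 16 lie above and 16 below.

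Cell cycle genes that are repressed downstream of p53 and p21 were read from 16 genes, all tested, with 0 called by limma and 0 at an unadjusted p under 0.05 in any comparison. In GC against Control 15 of the 16 had a difference above 0, with a median of 0.22 (log2), beside 58.1% and 0.09 for all tested genes. In ICB against Control 1 of 16 did, with a median of -0.27 beside -0.06, and in Combination against Control 0 of 16 did, with a median of -0.51 beside -0.29. The libraries of a group differed by more than these medians. Plk1, a mitotic kinase gene, stood at 11.2, 19.2 and 18.5 FPKM in GC tumours and at 3.995, 18.6 and 16.3 FPKM in Control (0.50 ± 0.63, adjusted p = 0.864). Birc5, which encodes survivin, stood at 53.8, 99.2 and 33.2 FPKM in GC tumours and at 9.66, 60.4 and 103 FPKM in Control (0.49 ± 0.84, adjusted p = 0.914). Aurka, another mitotic kinase gene, stood at 19.0, 28.6 and 24.8 FPKM in GC tumours and at 7.43, 26.5 and 30.7 FPKM in Control (0.35 ± 0.66, adjusted p = 0.928). In all 3 genes Control 1 was the lowest of the Control libraries, and without it the differences turned to -0.13 for Plk1, -0.48 for Birc5 and -0.25 for Aurka. With the hepatocyte covariate they were larger, at 1.94 for Plk1 (adjusted p = 0.0912), 2.59 for Birc5 (0.0668) and 2.02 for Aurka (0.0685). Over all chemotherapy libraries Foxm1 (-0.31, adjusted p = 0.739) and E2f1 (-0.15, adjusted p = 0.849), which encode cell cycle transcription factors, were among the 3 genes of smallest p.

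Across the 12 libraries, the genes outside the 10 targets with the profile most like that of Cdkn1a, by Pearson correlation of log2(FPKM + 1), were Gabarap (r = 0.93), Scand1 (0.92), Palld (0.92), Gdpd3 (0.91) and Mir692-2 (0.91). Their Spearman correlations lay between 0.88 and 0.94. These values describe libraries that share the same differences in tissue makeup and carry no test.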

How the data were processed

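Total RNA of 425-ICC tumours was sequenced as stranded libraries (Qiagen kits, per the labels' protocols). FastQC, cutadapt, HISAT2, SAMtools and HTSeq and the mm10 build are named in the submitters' processing notes, without versions; whether counting used strand is not given in the sources used here. The authors deposited FPKM per gene symbol for 12 libraries; sums ran from 547146 to 660067 FPKM. Whole reads could not be recovered (the fullest bin of low-value log2 ratios held at most 17.3% of genes over 66 library pairs), so depth is unknown and no count model was used. No pair of libraries was identical (highest Spearman correlation 0.9722). Replicate numbers are those of the titles.

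Values were analysed as log2(FPKM + 1), a scale that understates the change of low genes, with limma 3.58.1 in R 4.3.3 (empirical Bayes with an intensity trend, 8 residual degrees of freedom). A single fit of the 12 libraries covered the 12765 genes that averaged 1 FPKM or more, with Benjamini-Hochberg adjustment over all of them. The script was tested on simulated data. Alternatives were a pseudocount of 0.1, no filter, median-ratio scaling, the replicate number as a block, the mean log2 hepatocyte level as covariate, only the groups compared, and leaving out each library. The hepatocyte level itself differed between groups, with Control below all others, so fits with it are not a clean correction. Leaving out the muscle-rich GC 2 and Control 2, or all Combination libraries, was added after seeing the data. Named were all 10 targets, Trp53, Mdm4, list genes that were called, the 3 of smallest p per list in GC against Control and over chemotherapy, and the 5 genes most like Cdkn1a. The members and lists were chosen with earlier results of these data known. Cop1 was found under an older symbol. Gene positions are from GENCODE M21 (GRCm38).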

Additional observations from a re-analysis of the deposited data

How the results depend on the processing

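The number of the 9 tested targets called was 0 under each alternative in GC against Control, ICB against Control and the interaction. It was 1 over chemotherapy with the hepatocyte covariate (Pmaip1, adjusted p = 0.0379, where 3.44% of all tested genes were called). With libraries left out in turn it ran from 0 to 1 over chemotherapy and 0 to 2 in Combination against Control. It ran from 0 to 2 in Combination against GC and 0 to 1 in Combination against ICB. Each maximum was without Combination 1, where the fits called 14.2%, 26.3%, 24.9% and 17.1% of all tested genes, in the same order. Called genes of the whole table moved more: over all alternatives they ran from 0 to 740 in GC against Control (1 as reported; 740 with the hepatocyte covariate), 0 to 34 in ICB against Control (0), 89 to 3322 in Combination against Control (504), 3 to 3148 in Combination against GC (85), 37 to 2166 in Combination against ICB (286), 110 to 1796 over chemotherapy (429) and 0 to 865 in the interaction (2).

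No clear pairing by the replicate number of the titles was seen: 8 of 18 same-numbered pairs had deviations correlated above 0.1, and 13 of 36 other pairs did. These counts cannot exclude a pairing. The submitters' library names carry other numbers for part of the libraries, and a pairing by those was not tested. With the replicate block, 0 targets were called in each comparison, and the genes called were 3 for GC, 0 for ICB and 540 for Combination, each against Control. They were 53 for Combination against GC, 248 for it against ICB, 369 over chemotherapy and 0 in the interaction. The block ended the call of Ddb2 over chemotherapy (-0.96 with and without it, adjusted p = 0.0606).

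Directions (log2) turned for a number of genes, and the cause was not tested. Under median-ratio scaling Bax was at 0.015 over chemotherapy and 0.0029 under ICB, Mdm2 at 0.0014 under ICB and 0.10 in Combination against Control, where Ccng1 was at 0.25 and Cdkn1a at 0.25. In Combination against GC, Bbc3 was at 0.20, Pmaip1 at 0.16, Sesn2 at 0.013 and Trp53inp1 at 0.23 under it. With the hepatocyte covariate, Bax was at 0.81 over chemotherapy, 0.87 in Combination against Control and 0.49 under ICB, and Phlda3 at 0.96 over chemotherapy and 1.37 in Combination against Control. Trp53inp1 was at -0.15 over chemotherapy, -0.68 in Combination against Control and -0.17 under ICB. Under ICB, Bbc3 was at 0.0030, Ccng1 at 0.21, Mdm2 at 0.13 and Pmaip1 at 0.71, and in Combination against Control Ccng1 was at 0.78, Cdkn1a at 0.15 and Mdm2 at 0.31. Pmaip1 was at 0.90 in Combination against GC, Sesn2 at 0.10 over chemotherapy and 0.052 under GC, and Trp53 at 0.62 under GC. Over chemotherapy it put Cdkn2a at 0.17, E2f1 at 0.75 and Foxm1 at 1.33. Without both muscle-rich libraries Cdkn1a was at -0.037 over chemotherapy, Pmaip1 at 0.31 in Combination against GC, Trp53 at 0.052 under GC, and E2f1 was at 0.062 over chemotherapy.

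With each library left out in turn, ranges that crossed 0 were as follows. Over chemotherapy, Bax ran from -0.28 to 0.16, Cdkn1a from -0.0071 to 0.40, Mdm2 from -0.069 to 0.20, Phlda3 from -0.50 to 0.32, E2f1 from -0.41 to 0.22 and Foxm1 from -0.63 to 0.071. Under ICB, Bax ran from -0.17 to 0.010, Bbc3 from -0.30 to 0.16, Ccng1 from -0.39 to 0.043 and Cdkn1a from -0.0023 to 0.82. Under GC, Bbc3 ran from -0.33 to 0.073, Trp53 from -0.40 to 0.047, Aurka from -0.25 to 0.70, Birc5 from -0.48 to 1.16 and Plk1 from -0.13 to 0.86. In Combination against Control, Ccng1 ran from -0.35 to 0.081, Cdkn1a from -0.39 to 0.42, Mdm2 from -0.44 to 0.10, Phlda3 from -1.15 to 0.48 and Pmaip1 from -0.21 to 0.93. In Combination against GC, Pmaip1 ran from -0.83 to 0.31 and Trp53inp1 from -0.78 to 0.28.

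With 3 libraries a group and depth unknown, intervals are wide: in GC against Control the steadiest target, Mdm2, has a 95% interval of -0.39 to 0.84 on the log2 scale, so changes of that order cannot be told from none.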
